A study of Mus musculus with 32 samples.

Results

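The regions described here are weak but recurrent stretches of open chromatin in HSPCs, the haematopoietic stem and progenitor cells of mouse marrow. They were chosen from the measured values: of 16 deposited lists of ATAC-seq peaks, the 3 shortest were left out, and the 59609 autosomal peaks with the highest −log10 p of the authors were kept in each of the other 13. Overlapping peaks were merged into 107782 regions, and a region was kept when at least 8 of the 13 lists held a peak there and no list held 1 there among its 19100 strongest. This left 23227 weak recurrent regions, which were 45.8% of the 50700 regions present in at least 8 lists. The remaining 27473, with a stronger peak in at least 1 list, are called the other recurrent regions.

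The samples were wild-type HSPCs (C57BL/6J donor, CD45.1+/2+, Lin- cKit+ Sca1+) sorted from the marrow of lethally irradiated C57BL/6J recipients (CD45.2), each of which had received 800000 wild-type marrow cells together with 200000 test marrow cells. In AF9-experienced mice the test marrow was CD45.1 and homozygous for a doxycycline-inducible human MLL-AF9 fusion and for rtTA; in naive mice it was CD45.1, lacked MLL-AF9 and was homozygous for rtTA. Doxycycline began 6 to 8 weeks after transplantation, lasted 5 weeks in the AF9-experienced model of leukaemia and was withdrawn for 4 weeks to give remission, after which LPS (bacterial lipopolysaccharide, which activates Toll-like receptor 4) or PBS (the vehicle) was given and marrow was taken 24 hours later. There were 5 AF9-experienced LPS, 4 AF9-experienced PBS, 3 naive LPS and 4 naive PBS lists, each from a pair of technical libraries, and the labels do not say whether a replicate was a single mouse, which promoter drives rtTA, or whether naive mice received doxycycline. The lists left out were AF9-experienced PBS 1, naive LPS 3 and naive PBS 1, so the 13 used were 5 AF9-experienced LPS, 3 AF9-experienced PBS, 2 naive LPS and 3 naive PBS lists. The sorted cells come from the wild-type donor, so they never carried the fusion gene themselves.

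ATAC-seq marks DNA that a transposase can reach. The strongest sites in a mammalian cell are usually promoters of broadly used genes and sites bound by the insulator protein CTCF, whereas enhancers, which lie inside and between genes, are weaker and differ more between cell types and states. In HSPCs, enhancers around genes of transcription factors such as Etv6, Erg and Mecom help to hold the stem cell state, and inflammatory signals through NF-kB, AP-1 and STAT3 act largely at such distal sites.

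The 13 lists held 60841 to 88816 peaks before shortening, and total read depth was not given by the files. The median fold enrichment of a whole list, which the authors give as summit over local background, was 4.65 to 7.53 in the 7 LPS lists and 8.34 to 13.3 in the 6 PBS lists, without overlap. As a check of the labelled cell type, 10 of 18 stem cell identity genes, among them Kit, Cd34, Mecom and Meis1, had a strong peak at a gene end in all 13 lists, as did 8 of 10 housekeeping genes, 7 of 13 megakaryocyte-erythroid genes, 4 of 14 granulocyte-monocyte progenitor genes, 4 of 15 lymphoid priming genes and 2 of 10 monocyte-macrophage genes. The same held for 0 of 12 neutrophil granule genes, 0 of 10 mast cell and basophil genes, 1 of 13 mature lymphocyte genes (Cd3d), 1 of 11 endothelial and stromal genes and 2 of 15 neuronal and hepatic genes. Between 1 and 3 peaks on chromosome Y were listed in AF9-experienced LPS 1 and 2, naive LPS 1, 2 and 3 and naive PBS 3, and none in the other lists.

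Regions are compared here by their percentile in each library, which is 100 for the strongest peak of the shortened list and falls with rank. It is 0 where the shortened list held no peak in the region. By the rule no weak recurrent region could exceed 68.0, and their mean percentile over the 13 lists had a median of 28.3 and ran to 62.7. The median over the other recurrent regions was 75.3. Because every region kept had at least 8 peaks among 7 LPS and 6 PBS lists, each had at least 2 LPS and 1 PBS peaks, which bounds how far the treatments could differ. These bounds come from the choice of regions and are a description.

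Promoters show what a weak recurrent region can hold, because RefSeq gives their letters. The sequences are the 250 bases upstream of 7 gene starts that such regions overlapped (RefSeq, GRCm38.p6), read 5′ to 3′ on the strand of the gene, with each CpG dinucleotide in capitals. Mmp8 and Ltf encode granule proteins of neutrophils, Ctsg encodes the granule protease cathepsin G, and Itgam encodes the myeloid integrin CD11b; their regions passed the LPS test described below. Gata2 and Fgd5 mark stem cells, Gad2 encodes a brain enzyme that makes the transmitter GABA, and their regions did not pass.
Mmp8 (chr9:7558179-7558428, plus strand): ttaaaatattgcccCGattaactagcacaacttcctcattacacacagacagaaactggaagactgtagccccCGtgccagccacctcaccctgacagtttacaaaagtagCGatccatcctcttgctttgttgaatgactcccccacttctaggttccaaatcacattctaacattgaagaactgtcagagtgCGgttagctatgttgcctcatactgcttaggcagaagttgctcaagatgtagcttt
Ctsg (chr14:56102575-56102824, minus strand): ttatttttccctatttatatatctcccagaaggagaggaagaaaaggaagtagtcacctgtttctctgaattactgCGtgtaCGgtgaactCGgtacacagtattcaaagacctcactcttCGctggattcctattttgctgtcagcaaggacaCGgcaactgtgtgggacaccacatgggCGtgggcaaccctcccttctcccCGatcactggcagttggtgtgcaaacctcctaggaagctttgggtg
Ltf (chr9:111019042-111019291, plus strand): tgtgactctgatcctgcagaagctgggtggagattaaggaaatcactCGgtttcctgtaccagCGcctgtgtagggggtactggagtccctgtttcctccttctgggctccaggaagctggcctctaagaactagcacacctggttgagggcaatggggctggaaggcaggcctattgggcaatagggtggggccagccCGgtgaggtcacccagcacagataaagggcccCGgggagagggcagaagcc
Itgam (chr7:128062390-128062639, plus strand): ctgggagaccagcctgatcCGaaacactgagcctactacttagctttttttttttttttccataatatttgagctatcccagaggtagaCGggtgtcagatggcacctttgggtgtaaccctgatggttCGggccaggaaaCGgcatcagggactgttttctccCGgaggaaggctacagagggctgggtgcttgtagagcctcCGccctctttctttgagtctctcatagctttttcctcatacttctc
Gata2 (chr6:88193641-88193890, plus strand): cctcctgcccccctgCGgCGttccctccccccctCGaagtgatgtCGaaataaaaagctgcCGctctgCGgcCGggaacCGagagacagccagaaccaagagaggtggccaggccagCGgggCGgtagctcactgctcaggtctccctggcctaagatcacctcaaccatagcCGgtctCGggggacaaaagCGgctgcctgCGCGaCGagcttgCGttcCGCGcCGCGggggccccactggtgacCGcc
Fgd5 (chr6:91978715-91978964, plus strand): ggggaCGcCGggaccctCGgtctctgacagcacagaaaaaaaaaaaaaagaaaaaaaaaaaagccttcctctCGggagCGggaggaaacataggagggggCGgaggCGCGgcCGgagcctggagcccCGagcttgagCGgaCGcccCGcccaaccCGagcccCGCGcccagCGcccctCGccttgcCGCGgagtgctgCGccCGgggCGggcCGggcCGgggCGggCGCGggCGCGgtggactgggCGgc
Gad2 (chr2:22622077-22622326, plus strand): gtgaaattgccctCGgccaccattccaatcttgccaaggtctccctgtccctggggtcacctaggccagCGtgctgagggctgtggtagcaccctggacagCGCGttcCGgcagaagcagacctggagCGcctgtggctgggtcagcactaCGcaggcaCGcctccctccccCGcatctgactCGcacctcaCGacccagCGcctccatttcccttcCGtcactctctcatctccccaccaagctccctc
The stretches of the 4 myeloid genes held 4 (Mmp8), 7 (Ctsg), 4 (Ltf) and 6 (Itgam) CpGs, against 22 for Gata2, 31 for Fgd5 and 13 for Gad2. GC content was 44.8% for Mmp8, 48.8% for Ctsg, 59.2% for Ltf and 49.6% for Itgam, and 67.2% for Gata2, 71.6% for Fgd5 and 64% for Gad2. These 7 were chosen after their values were seen and do not stand for their cell types: the stem cell genes Erg, Tek and Mecom, whose promoters weak recurrent regions also overlapped, had 3, 2 and 8 CpGs in the same stretch.

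MicroRNAs are short RNAs that repress messages paired to their seed, and 31 of the 919 autosomal miRNA hairpins in RefSeq lay in weak recurrent regions, against 85 in the other recurrent regions. The mature forms below belong to hairpins known from blood and inflammation (miR-155 and miR-142), from the Hoxa cluster (miR-196b), from the nervous system (miR-9) and from a region that passed the LPS test (miR-202). Capitals mark the seed, bases 2 to 8.
mmu-miR-155-5p (chr16:84714143-84714165, plus strand): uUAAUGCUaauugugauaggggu
mmu-miR-142a-3p (chr11:87756903-87756925, plus strand): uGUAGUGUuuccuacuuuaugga
mmu-miR-196b-5p (chr6:52230129-52230150, minus strand): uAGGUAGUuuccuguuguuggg
mmu-miR-9-5p (chr3:88215613-88215635 and chr7:79505279-79505301, plus strand): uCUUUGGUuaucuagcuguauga
mmu-miR-202-3p (chr7:139957695-139957716, minus strand): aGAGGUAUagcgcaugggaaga
These 5 mature forms have 5 different seeds. The hairpins Mir9-1 and Mir9-3 lie in 2 separate weak recurrent regions and give the same miR-9-5p. The region over Mir202 and its neighbour Mir7686 had percentiles of 0, 0 and 12.6 (lowest, median, highest) in the 7 LPS lists, against 25.7, 33.9 and 40.3 in the 6 PBS lists. The treatments did not overlap, and the difference was −31.1 ± 6.12 (SE; limma adjusted p = 0.00174). In contrast, the region over Mir155, a microRNA that inflammatory signals are known to induce, had 0, 9.58 and 39.1 in LPS lists and 0, 22.9 and 39.9 in PBS lists, a difference of −9.34 ± 8.61 (adjusted p = 0.454). That over Mir142, a microRNA of blood cells, had 0, 8.60 and 33.4 in LPS lists and 17.3, 23.4 and 29.6 in PBS lists, with a difference of −8.53 ± 6.84 (adjusted p = 0.386). Both sets of values overlapped between treatments. Among the 31 hairpins, 6 lay in 5 called regions, against a background of 21.9% of all tested regions called. Of these hairpins, 3 lay in regions that were higher after LPS, among them Mir3092 (+45.5 ± 7.30), and 3 in regions that were lower, Mir202 and Mir7686 in 1 region and Mir6993 (−34.1 ± 7.50) in another.

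Weak recurrent regions lay inside genes more often than at gene ends. A gene end, meaning either end of a protein-coding gene model, was within 1 kb of 11.5% of them, a further 48.4% lay inside a gene, 29.6% were within 50 kb of one and 10.5% were farther away. Among the other recurrent regions 38.1% were at gene ends and 34.4% inside genes, and among the 12587 regions that were strong in all 13 lists 61.3% were at gene ends. The weak regions found in fewer than 8 lists had 6.30% at gene ends and 50.9% inside genes.

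**Figure D1:**
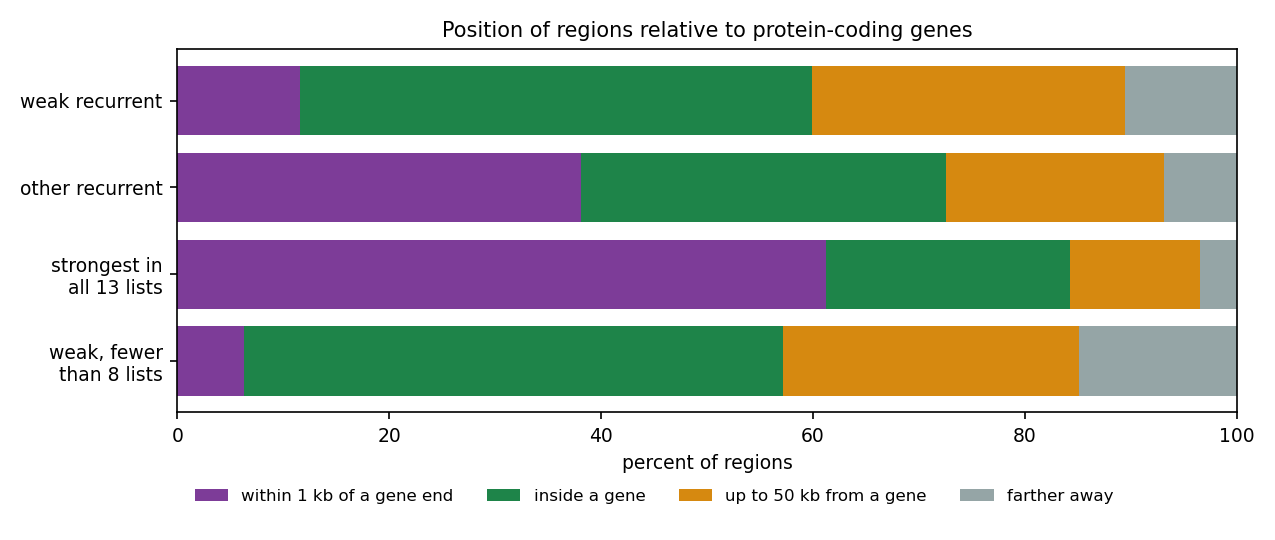
Share of regions (percent, stacked bars) at a gene end, inside a gene, within 50 kb of a gene and beyond, for weak recurrent regions, the other recurrent regions, the regions strong in all 13 lists and weak regions in fewer than 8 lists. The gene-end part is 11.5%, 38.1%, 61.3% and 6.30% in that order.

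Measured within each library, 12.2% ± 0.755 (SD, n = 13) of the peaks in weak recurrent regions and 38.5% ± 0.273 of those in the other recurrent regions were at gene ends. The difference was −26.3 ± 0.530 percentage points and had this sign in 13 of 13 libraries (exact two-sided sign-flip permutation test over libraries, p = 0.000244, the smallest that 13 libraries can give). The lists hold largely the same regions, so this test and those on distance, CpG number and GC content cover the spread between libraries and not between regions. The gene-end share grew with recurrence, being 7.75% for regions in 8 lists, 7.49% in 9, 8.83% in 10, 9.55% in 11, 11.3% in 12 and 17.9% in 13. Regions present in all 13 lists made up 27.2% of the 23227, and their median width of 783.5 bp compared with 511 bp for those in 8 lists.

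The distance from a weak recurrent region to the nearest strong region was slightly longer than that from the remaining recurrent regions. Its median within a library was 13061 ± 227 bp (SD, n = 13), against 12097 ± 18.2 bp for the other recurrent regions, with a difference of 965 ± 217 bp that was positive in 13 of 13 libraries (exact sign-flip permutation p = 0.000244). A strong region lay within 5 kb of 21.6% of the weak recurrent regions and 22.3% of the others. On the 19 autosomes they made up 43.0% (chromosome 7) to 48.6% (chromosome 13) of all recurrent regions.

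The promoter windows within weak recurrent regions were poorer in CpG than those in the other recurrent regions. RefSeq windows, from 250 bases before to 50 after a gene start, were overlapped 2082 times by 1725 weak recurrent regions and 12193 times by the other recurrent regions, with a median CpG number of 12 in the weak recurrent and 22 in the other recurrent regions. Windows that no region overlapped had a median of 3. Per library the median CpG number was 12.8 ± 0.689 in weak recurrent and 22 ± 0 in other recurrent regions (SD, n = 13), a difference of −9.15 ± 0.689, and the median GC content was 58.6% ± 0.497 in weak recurrent and 62.0% ± 0 in other recurrent regions, a difference of −3.45 ± 0.497 percentage points. Both differences were negative in 13 of 13 libraries (exact sign-flip permutation p = 0.000244). The libraries share most of these windows, so this p covers libraries only and does not stand for 13 separate sets of windows.

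The motif letters in these windows, searched on both strands, are given for the same comparison as a description, with no test, since the libraries share most of the windows. The letters GGGCGG (KLF and SP factors) were in 49.3% of windows of weak recurrent regions and 66.5% of windows of other recurrent regions, against 36.0% of all windows. CCAAT (NF-Y) was in 29.9% of weak and 37.1% of other windows (37.3% of all), and GGAAGT (ETS factors, PU.1) in 21.7% of weak and 28.6% of other windows (23.9% of all). The reverse order held for TGANTCA (AP-1), found in 7.94% of weak and 4.39% of other windows (7.84% of all). The letters AGATAA of GATA factors were likewise in 8.69% of weak and 5.43% of other windows (11.2% of all), and TTGCNNAA (C/EBP) in 8.94% of weak and 7.57% of other windows (10.9% of all). Compared with windows of other recurrent regions, those of weak recurrent regions thus held KLF and SP, NF-Y and ETS letters at lower shares. They held AP-1, GATA and C/EBP letters at higher shares. Windows that no region overlapped held AP-1 letters in 10.3%, GATA in 15.6% and C/EBP in 13.6%, above the weak recurrent regions. Their shares were 11.6% for KLF and SP, 20.8% for ETS and 38.6% for NF-Y. TGTGGTT (RUNX) was in 4.82% of weak and 3.72% of other windows (5.32% of all), the IRF motif in 3.51% of weak and 2.83% of other windows (3.46% of all), and the NF-kB motif in 6.65% of weak and 7.12% of other windows (5.84% of all). Each of these 9 differences had 1 sign in 13 of 13 libraries. The CTCF motif was in 3.22% of weak and 3.09% of other windows (2.47% of all), higher in 11 of 13 libraries. Shares are means over the 13 libraries, matches of different motifs could overlap, and a match is a description of letters and not a binding site.

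Libraries differed in how many of the weak recurrent regions they held. The 5 AF9-experienced LPS lists held 20140, 18873, 15484, 14939 and 18888 of them, the 3 AF9-experienced PBS lists 21366, 21529 and 21535, the 2 naive LPS lists 19970 and 18664, and the 3 naive PBS lists 19343, 21523 and 21643. AF9-experienced LPS 3 and 4 were lowest, and the LPS and PBS ranges overlapped only through naive PBS 2. The mean was 18137 ± 2083 in LPS lists (SD, n = 7) and 21157 ± 893 in PBS lists (n = 6), a difference of −3020. Within AF9-experienced mice the difference was −3812, and within naive mice it was −1519. Between AF9-experienced and naive lists the difference was −1134 over both treatments. Presence in these lists chose the regions, so the numbers are a description, with no test.

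**Figure D2:**
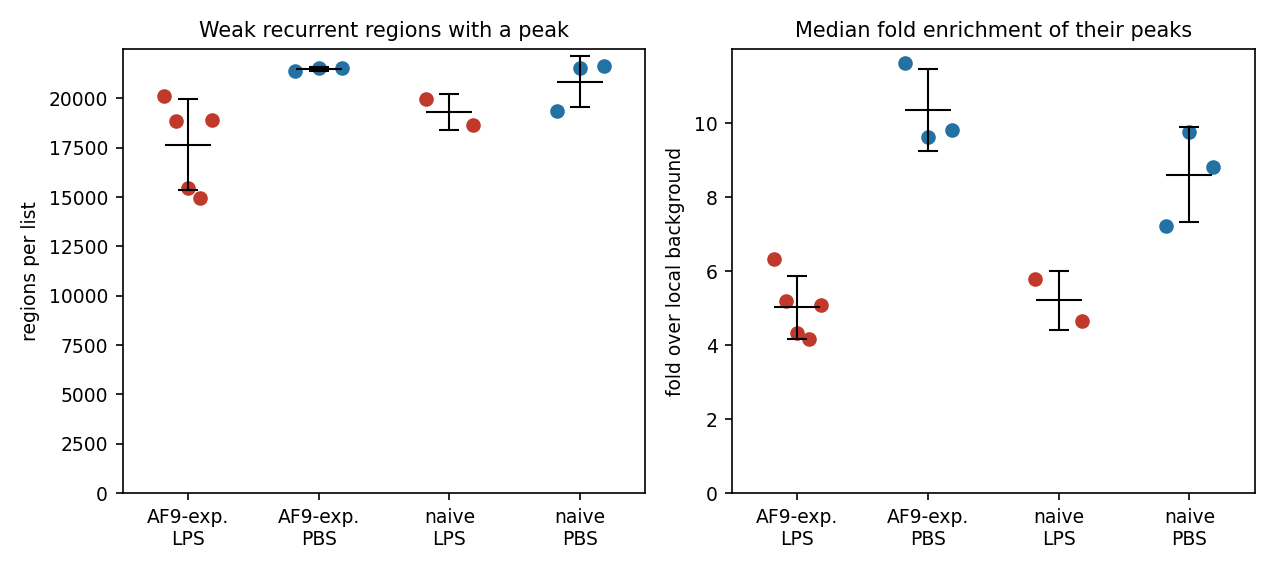
Number of weak recurrent regions with a peak (left) and median fold enrichment of those peaks (right) in each of 13 libraries, by group (AF9-experienced LPS, AF9-experienced PBS, naive LPS, naive PBS); points are libraries, lines the mean ± SD. The 7 LPS libraries have a median fold of 4.17 to 6.32, all below the 6 PBS libraries (7.22 to 11.6).

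Where a peak was present, it was also lower over its background in LPS libraries. The median fold enrichment of peaks in weak recurrent regions was 6.32, 5.21, 4.33, 4.17 and 5.08 in AF9-experienced LPS lists and 11.6, 9.63 and 9.80 in AF9-experienced PBS lists. It was 5.78 and 4.64 in naive LPS lists and 7.22, 9.76 and 8.82 in naive PBS lists. LPS and PBS lists did not overlap, with means of 5.08 ± 0.777 (SD, n = 7) and 9.48 ± 1.44 (n = 6), a difference of −4.40. Within AF9-experienced mice the difference was −5.33, and within naive mice it was −3.39. The strength of peaks within each list chose the regions, so these values are a description, with no test. The whole lists showed the same order, as given above, so the enrichment of a library and its treatment cannot be told apart.

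The 3 lists left out played no part in choosing the regions and show how these behave in shorter lists. Naive LPS 3, with 38762 autosomal peaks, held 29.9% of the weak recurrent regions and 84.2% of the other recurrent regions. AF9-experienced PBS 1, with 25219, held 13.1% of the weak recurrent and 69.7% of the other recurrent regions, and naive PBS 1, with 19100, held 4.56% of the weak recurrent and 56.3% of the other recurrent regions. Presence grew with recurrence: naive LPS 3 held 14% of the regions in 8 lists and 53.1% of those in 13, the same shares were 4.72% and 26.1% in AF9-experienced PBS 1, and 1.3% and 9.24% in naive PBS 1. In all, 61.9% of the weak recurrent regions were in none of the 3 lists and 237 (1.02%) were in every one.

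**Figure D3:**
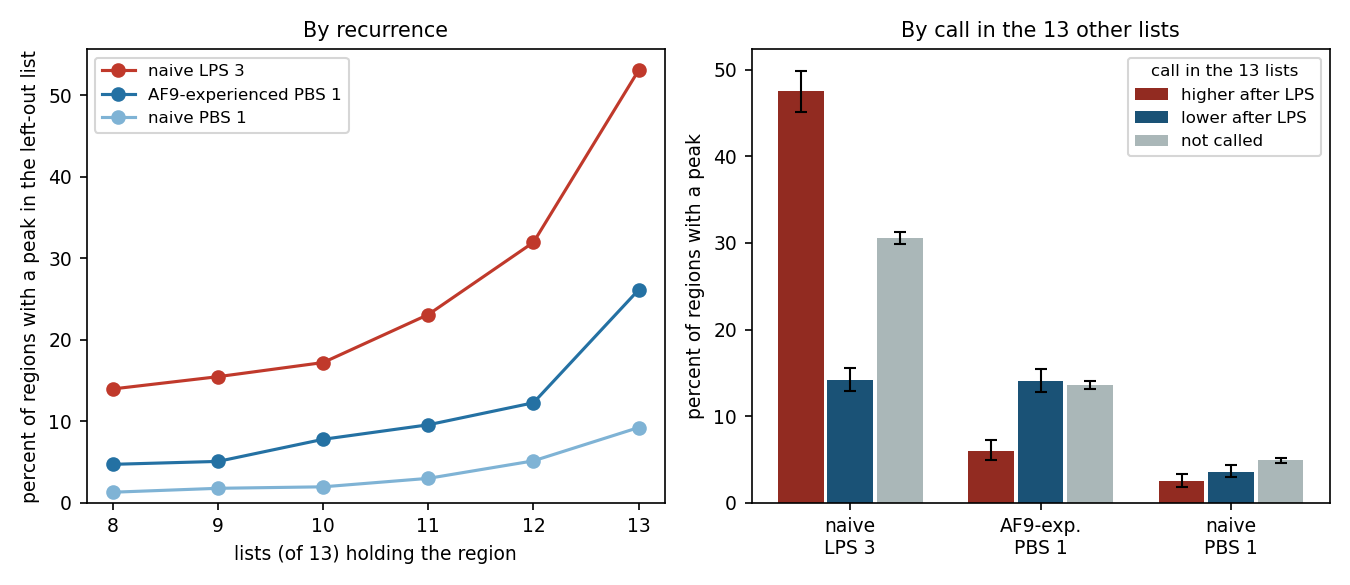
Left, share of weak recurrent regions (percent) with a peak in each left-out list, by the number of the 13 lists that held the region; right, the same share for regions called higher, lower or not called after LPS, with 95% exact binomial intervals. In naive LPS 3, 47.5% of the regions called higher and 14.2% of those called lower have a peak.

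Over both backgrounds, 1774 of the 23227 weak recurrent regions were higher and 2831 lower after LPS (limma, adjusted p under 0.05), together 4605 or 19.8%. Over all 70017 tested regions 10.2% were higher and 11.7% lower, together 21.9%, so the weak regions passed the test at about the background share, with fewer of them higher (7.64%) than in the background. The median difference over the weak recurrent regions was −4.48 percentile points, against −0.973 over all tested regions. With peaks ranked by fold enrichment, where the same rule chose its regions anew, it was −1.33. Over the regions used here it was −1.46 with 40000 peaks per list and −0.365 with the median fold of the library as a covariate. Regions called higher had a median difference of +29.9 points and those called lower −28.5. In bulk libraries, a shift in the make-up of the sorted cells and a change of accessibility per cell cannot be told apart. Enrichment moved with treatment: with the median fold of the library as a covariate, which leaves little of the treatment to test because the groups do not overlap in it, 0 of these regions were called, although 91.8% of the 4605 kept their sign. Without naive LPS 2, 2947 regions were called. Among the regions chosen anew with peaks ranked by fold enrichment, 2416 were higher and 2332 lower. The higher share of calls was 50.9% there against 38.5% here, and both the regions and the ranking differ.

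The list of naive LPS 3, which the fit did not use, followed the calls. It held 47.5% (95% exact binomial interval 45.2 to 49.9) of the regions called higher after LPS, 14.2% (13 to 15.6) of those called lower and 30.5% of those not called. The left-out PBS lists did not have this excess: AF9-experienced PBS 1 held 6.03% of the regions called higher, 14.1% of those called lower and 13.6% of those not called, and naive PBS 1 held 2.48% of those called higher, 3.6% of those called lower and 4.91% of those not called. The intervals cover counting error over regions only. Presence in the left-out lists grew with recurrence, and these shares were not matched for it. Regions called higher were in a mean of 10.8 of the 13 lists, those called lower in 10.1 and those not called in 11.1. Within the 13 lists, 734 regions (3.16%) had every LPS value above every PBS value and 1059 (4.56%) every LPS value below, against 4.5% and 5.06% of all tested regions.

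Most called regions were distal: a gene end was near 5.47% of those higher after LPS and 7.95% of those lower. At the few that overlapped promoter windows, composition differed between the directions. The 72 windows in regions called higher had a median of 4 CpGs, the 137 in regions called lower 8 and the 1873 in regions not called 13. The letters AGATAA were in 29.2% of windows called higher, 9.49% of those called lower and 8.12% of those not called. GGAAGT was in 38.9% of windows called higher, 23.4% of those called lower and 21.3% of those not called, and TTGCNNAA in 20.8%, 8.03% and 8.81% in the same order. GGGCGG was in 23.6% of windows called higher, 40.1% of those called lower and 50.1% of those not called. These shares over few windows were not tested.

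The regions highest after LPS were close to absent from the shortened PBS lists. A 0 there does not mean that no peak was called. Before shortening, the PBS lists used held 84.0% (naive PBS 2) to 99.7% (AF9-experienced PBS 2) of all weak recurrent regions. Inside Zmiz1, a PIAS-like coregulator of transcription, the region chr14:25527358-25527711 had percentiles of 51.5, 61.6, 53.5, 52.0 and 67.5 in AF9-experienced LPS lists and 59.9 and 52.6 in naive LPS lists, against 0.0554, 0 and 0 in AF9-experienced PBS lists and 0 in all 3 naive PBS lists. The difference was +56.7 ± 6.30 (SE; limma adjusted p = 1.72e-05). The same pattern, with no overlap, was seen inside Inpp5f, which encodes a phosphoinositide phosphatase, with 45.5, 60.1 and 65.9 (lowest, median, highest) in LPS lists against 0, 0 and 4.15 in PBS lists (+56.2 ± 6.43). A region 24.8 kb from Lilrb4a, an inhibitory receptor of myeloid cells, had 40.9, 57.2 and 65.9 in LPS lists against 0, 0 and 6.16 in PBS lists (+56.0 ± 6.49). Zbtb16 encodes PLZF, a transcription factor of stem and progenitor cells, and a region inside it had 40.1, 56.6 and 63.0 in LPS lists against 0, 0 and 4.58 in PBS lists (+54.8 ± 6.44). Regions near Gna13, a G protein subunit (+54.9 ± 6.32), inside Gas7, a cytoskeletal protein (+55.1 ± 6.37), and inside Gga1, a Golgi adaptor (+54.6 ± 6.47), likewise had no overlap of treatments.

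The regions lowest after LPS mirrored this. The region chr8:86910233-86910867, 24.9 kb from N4bp1, a ribonuclease and inhibitor of NF-kB signalling, had percentiles of 6.74, 19.7, 0, 0 and 0 in AF9-experienced LPS lists and 0 in both naive LPS lists, against 58.5, 65.3 and 61.3 in AF9-experienced PBS lists and 61.8, 57.3 and 55.4 in naive PBS lists. The difference was −57.3 ± 6.49 (limma adjusted p = 2.02e-05), and every LPS value was below every PBS value. Inside Man1c1, a mannosidase of the Golgi, LPS lists had 0, 0 and 28.8 and PBS lists 58.1, 62.3 and 65.5 (−57.6 ± 6.94), and inside the integrin gene Itga9 LPS lists had 0, 0 and 20.7 and PBS lists 56.3, 59.2 and 65.4 (−54.4 ± 6.67). A region 4.1 kb from Cyp11a1, which encodes the enzyme that begins steroid synthesis, had 0, 21.6 and 39.0 in LPS lists and 54.9, 62.3 and 67.2 in PBS lists (−48.8 ± 6.10). None of these overlapped between treatments.

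**Figure D4:**
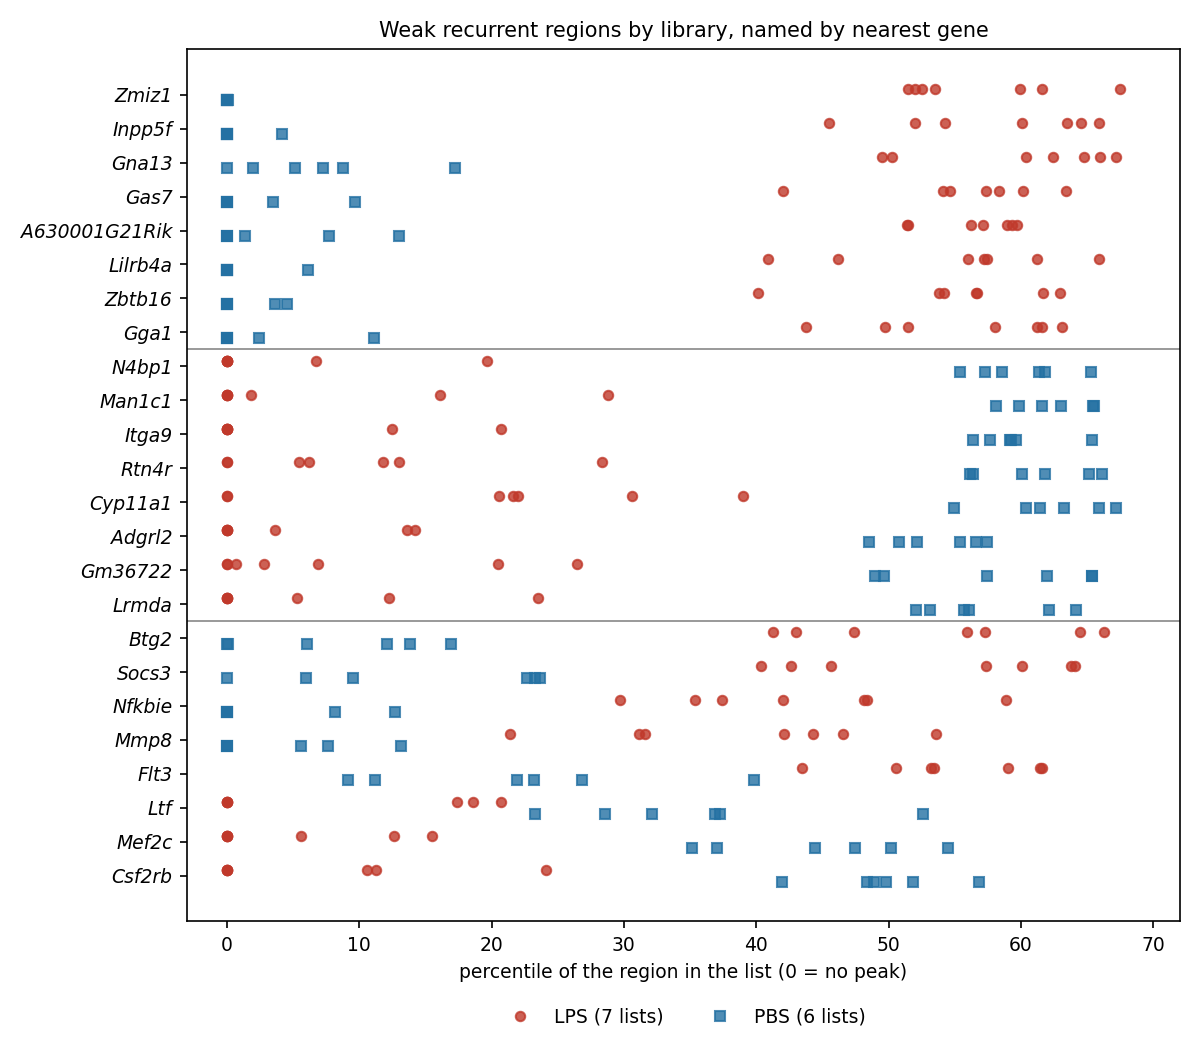
Percentile of 24 named weak recurrent regions (rows, by linked gene) in each LPS library and each PBS library; points are libraries. The regions with the smallest p in each direction show no overlap of LPS and PBS values, as in Zmiz1 (51.5 to 67.5 after LPS) and N4bp1 (55.4 to 65.3 after PBS).

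Weak recurrent regions at stem cell genes changed in both directions. They made up 90 of the 243 tested regions linked to stem cell identity genes, or 37.0%, against 33.2% of all tested regions. Over all tested regions 10.2% were higher and 11.7% lower after LPS. Of the 90, linked to 16 of 18 such genes, 8 were higher and 11 lower, close to those shares. Their median difference was −2.95. The higher ones lay at Etv6 (4 of 19), Erg (2 of 13) and Mecom (2 of 11), and the lower ones at Prdm16 (5 of 7), Runx1 (2 of 6), Lmo2 (2 of 5), Hlf (1 of 2) and Mecom (1 of 11). Etv6, Erg and Mecom encode transcription factors that stem cells need. Inside Etv6, the region chr6:134089671-134090741 had 47.8, 52.6, 55.9, 33.7 and 52.9 in AF9-experienced LPS lists and 49.99 and 36.5 in naive LPS lists, against 0, 0 and 15.9 in AF9-experienced PBS lists and 0.351, 0 and 0 in naive PBS lists (+43.2 ± 6.83, limma adjusted p = 0.000318). Inside Mecom, chr3:30239291-30239821 had 47.8, 55.5 and 62.7 in LPS lists against 0, 12.5 and 20.8 in PBS lists (+46.1 ± 6.24), and inside Erg, chr16:95421416-95422343 had 32.7, 46.6 and 66.8 in LPS lists against 0, 4.33 and 17.8 in PBS lists (+42.8 ± 7.02). The treatments did not overlap at any of these 3. The gene ends of Procr, Fgd5, Tek, Gata2, Erg and Lmo2 were among those that were themselves weak recurrent regions, and none of the 5 of these whose RefSeq promoter was covered passed the test there, with Gata2 at −2.70 ± 5.87 (adjusted p = 0.767), Fgd5 at −11.9 ± 6.75 (0.216), Erg at −14.2 ± 7.10 (0.161), Procr at +3.54 ± 8.34 (0.787) and Tek at +5.88 ± 9.53 (0.684).

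Regions at myeloid genes were also called in both directions, beside a background of 10.2% of all tested regions higher and 11.7% lower. The counts at these genes were not tested against it. Of 28 weak recurrent regions at 13 of 14 granulocyte-monocyte progenitor genes, 3 were higher (at Ctsg, Ms4a3 and Spi1) and 3 lower (at Cebpa and 2 at Itgam). The Ctsg promoter shown above had 18.9, 50.01 and 60.1 in LPS lists against 17.2, 21.3 and 29.6 in PBS lists (+27.1 ± 7.30, limma adjusted p = 0.0132), with overlap. The Itgam promoter had 0, 20.4 and 51.0 in LPS lists against 35.9, 46.4 and 53.7 in PBS lists (−25.8 ± 8.66, adjusted p = 0.0404), also with overlap. Of 10 regions at 5 of 12 neutrophil granule genes, 1 was higher, at the start of the collagenase gene Mmp8, and 1 lower, at the start of the lactoferrin gene Ltf. Mmp8 had 21.4, 42.1, 46.6, 31.6 and 44.3 in AF9-experienced LPS lists and 53.6 and 31.1 in naive LPS lists, against 5.59, 7.64 and 13.2 in AF9-experienced PBS lists and 0 in all 3 naive PBS lists (+35.4 ± 6.98, adjusted p = 0.00179). Ltf had 0, 17.4, 0, 0 and 18.6 in AF9-experienced LPS lists and 0 and 20.7 in naive LPS lists, against 32.1, 52.6 and 23.3 in AF9-experienced PBS lists and 37.3, 28.6 and 36.9 in naive PBS lists (−26.3 ± 7.41, adjusted p = 0.0168). Neither gene's treatments overlapped, so the starts of 2 neutrophil granule genes moved in opposite directions. Among 13 regions at 8 mast cell and basophil genes 1 was higher and 3 lower, and the gene for the histamine-making enzyme, Hdc, held both kinds (1 higher, 2 lower). Among 10 regions at 6 monocyte-macrophage genes 2 were higher, at Cd14 and Ccr2, and none lower.

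Weak recurrent regions at inflammatory signalling genes changed in both directions, and their counts stand beside the background of 21.9% of all tested regions called. Of 50 regions at 20 of 30 NF-kB and Toll-like receptor genes, 6 were higher, 1 each at Nfkbie, Tnfaip3, Tnfaip2, Tlr2, Il1b and Cd14, and 2 were lower, at Nfkbia and the chemokine gene Cxcl2. Nfkbie encodes an inhibitor of NF-kB, and the region at its gene end (chr17:45554512-45555008) had 29.7, 42.0 and 58.9 in LPS lists against 0, 0 and 12.7 in PBS lists (+37.3 ± 6.73, limma adjusted p = 0.000926), without overlap. Of 32 regions at 15 of 24 AP-1 and immediate early genes, 5 were higher (2 at Btg2 and 1 each at Fosb, Klf6 and Nr4a2) and 3 lower (2 at Fos and 1 at Jun). The antiproliferative gene Btg2 had 41.3, 55.9 and 66.2 in LPS lists against 0, 9.09 and 17 in PBS lists at chr1:134065239-134065684 (+47.4 ± 6.99), without overlap. Among 33 regions at 11 of 15 genes of IL-6, STAT3 and emergency granulopoiesis, 3 were higher (Socs3, Stat5a and Stat5b) and 4 lower (Il6st, Csf2rb, Cebpb and Socs3). Socs3 encodes a feedback inhibitor of cytokine receptors, and the higher of its called regions had 40.4, 57.4 and 64.1 in LPS lists against 0, 16.1 and 23.6 in PBS lists (+41.4 ± 7.26). Il6st encodes the shared receptor chain gp130, and its region had 0, 16.2 and 32.1 in LPS lists against 49.7, 57.9 and 62.7 in PBS lists (−44.4 ± 6.36). Csf2rb encodes a cytokine receptor chain, and its region had 0, 0 and 24.1 in LPS lists against 42.0, 49.4 and 56.8 in PBS lists (−43.4 ± 6.85). These 3 did not overlap between treatments.

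Among interferon-stimulated genes, which make up the antiviral programme, 0 of 19 regions at 11 of 23 genes were called in either direction by limma, and their median difference was −5.91. Among them, the promoters of Oas1a (+3.77 ± 6.48, limma adjusted p = 0.703) and Gbp2 (−7.47 ± 5.77, adjusted p = 0.368) were weak recurrent regions. The ends of 12 of the 23 genes, among them Irf7 and Ifit2, were strong in all 13 lists. Such ends are outside the weak regions, and a share of 0 of 19 is not shown to differ from the 21.9% of all tested regions.

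At genes listed as targets or cofactors of MLL-AF9, 54 weak recurrent regions at 14 of 17 genes had 5 higher and 3 lower after LPS. Their median difference was +2.93. Over all tested regions 10.2% were higher and 11.7% lower, and the counts at these genes do not exceed those shares. Cdk6, a kinase that drives the cell cycle, had 3 of 7 regions higher, the one at chr5:3472391-3473327 with 17.4, 31.6 and 46.8 in LPS lists against 0, 0 and 9.11 in PBS lists (+30.2 ± 6.72, limma adjusted p = 0.00412). Dot1l, the histone methyltransferase that the fusion recruits, had a region with 29.0, 46.3 and 60.7 in LPS lists against 3.98, 8.07 and 22.7 in PBS lists (+35.7 ± 7.39). The transcription factor gene Mef2c had 1 of 3 regions lower, with 0, 0 and 15.5 in LPS lists against 35.1, 46.0 and 54.5 in PBS lists (−39.1 ± 6.71). The treatments did not overlap at any of these 3 regions.

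Among 40 regions at 12 of 15 lymphoid priming genes, 6 were higher (2 at Flt3 and 1 each at Satb1, Ikzf1, Bcl11a and Tcf7) and 4 lower (2 at Bcl11a, 1 each at Lef1 and Tcf7). The cytokine receptor gene Flt3 had 43.5, 53.4 and 61.6 in LPS lists against 9.15, 22.6 and 39.9 in PBS lists (+34.3 ± 6.64, limma adjusted p = 0.00155), without overlap. For the remaining lists, the counts higher and lower were 3 and 2 of 23 regions at cell cycle genes, 2 and 0 of 19 at BCL2 family genes, 0 and 1 of 11 at antigen presentation genes, 2 and 2 of 18 at megakaryocyte-erythroid genes, 0 and 2 of 13 at mature lymphocyte genes and 1 and 4 of 21 at endothelial and stromal genes. The control lists had 0 and 0 of 8 at housekeeping genes and 0 and 2 of 17 at neuronal and hepatic genes. Pecam1, an adhesion molecule of endothelium and blood cells, had 1 of its 6 regions higher (+48.7 ± 7.01) and 2 lower (−28.9 ± 6.29 and −34.2 ± 6.93). List counts are small beside the background of 10.2% higher and 11.7% lower, and nothing particular to a list follows from them.

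The LPS difference was similar in direction in the separate backgrounds, whose libraries are not shared. In AF9-experienced mice 826 weak recurrent regions were higher and 1208 lower (limma adjusted p under 0.05), against backgrounds of 4.93% and 5.53% of all tested regions, together 10.5%. In naive mice 518 were higher and 529 lower, against backgrounds of 3.9% and 2.83%, together 6.73%. Of the regions called higher, 300 were shared, which is 36.3% of the AF9-experienced and 57.9% of the naive calls. Of those called lower, 268 were shared, 22.2% of the AF9-experienced and 50.7% of the naive calls. No region was called in opposite directions. Among the regions chosen anew with peaks ranked by fold enrichment, AF9-experienced mice had 1739 higher and 1463 lower. Of the naive calls, 510 of 518 higher and 517 of 529 lower had the same sign in AF9-experienced mice, where their median differences were +31.3 and −30.3 percentile points. The counts rested on few lists: without AF9-experienced PBS 2, 3 or 4, the AF9-experienced mice had 694 (309 higher, 385 lower), 528 (271 higher, 257 lower) and 575 calls (301 higher, 274 lower) against 2034, and without naive LPS 1 or 2 or naive PBS 2 or 3 the naive mice had 119, 61, 276 and 245 calls against 1047. Leaving out AF9-experienced PBS 2, 3 or 4, which share in the estimate of the spread, gave 697, 658 and 664 calls in naive mice. Over all 23227 weak recurrent regions, 39.1% of differences were positive in AF9-experienced mice and 41.7% in naive mice.

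**Figure D5:**
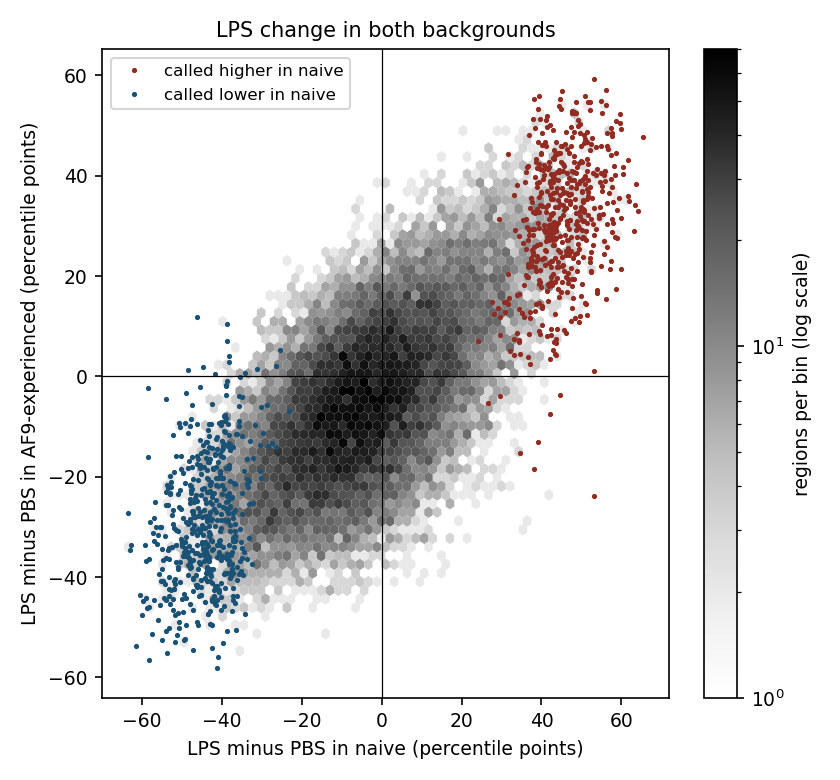
LPS minus PBS difference in percentile points of each of the 23227 weak recurrent regions in AF9-experienced mice and in naive mice, as a density of regions. Regions called in naive mice lie mostly in the quadrants of equal sign, with 510 of 518 higher and 517 of 529 lower calls having the same sign in AF9-experienced mice.

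A history of MLL-AF9 leukaemia in the same marrow left almost no called difference in the weak recurrent regions. AF9-experienced minus naive gave 0 calls over both treatments and 0 after PBS (limma adjusted p under 0.05, background 0%), with 734 regions (3.16%) and 333 regions (1.43%) at an unadjusted p under 0.05, against 4.11% and 3.11% of all tested regions in the same order. The interaction, the LPS difference in AF9-experienced mice minus that in naive mice, gave 0 calls (background 0%) and 822 regions (3.54%, against 3.94% of all tested regions) at an unadjusted p under 0.05. After LPS, 1 region was called higher in AF9-experienced mice and none lower, against a background of 0.00143% higher and 0.0114% lower (together 0.0129%), with 1500 (6.46%, against 6.13% of all tested regions) at an unadjusted p under 0.05. After LPS, naive mice had only 2 lists.

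The called region, chr15:63601579-63602474, is 173.5 kb from the nearest gene, the gasdermin gene Gsdmc. It had percentiles of 41.1, 60.5, 45.7, 56.9 and 54.9 in AF9-experienced LPS lists and 0 and 0 in naive LPS lists, while AF9-experienced PBS lists had 54.9, 51.8 and 55.4 and naive PBS lists 56.6, 63.5 and 55.1. The region was thus missing from both shortened naive LPS lists and present in every other shortened list. None of the left-out lists held a peak there. Naive LPS 3 held only 23.1% of the weak recurrent regions found in 11 lists, so its lack of a peak there adds nothing. The difference after LPS was +51.8 ± 7.83 (limma adjusted p = 0.0388), and the interaction was +56.2 ± 10.9 (adjusted p = 0.714). The end of Tars2, a mitochondrial threonyl-tRNA synthetase gene, had the same shape without passing. It had 61.5, 51.6, 52.1, 62.2 and 57.9 in AF9-experienced LPS lists and 21.5 and 0 in naive LPS lists, with 51.7, 60.2 and 55.6 in AF9-experienced PBS lists and 54.1, 65.7 and 57.5 in naive PBS lists (+46.3 ± 7.57 after LPS, adjusted p = 0.0621). Inside Plch2, a phospholipase C gene, AF9-experienced LPS lists had 36.8, 56.6, 28.7, 64.3 and 47.1 and naive LPS lists 0.0403 and 0, with 60.3, 56.2 and 58.4 in AF9-experienced PBS lists and 48.3, 52.3 and 55.9 in naive PBS lists (+46.7 ± 9.39, adjusted p = 0.127). No weak recurrent region was called after LPS when any of 11 libraries was left out in turn (AF9-experienced LPS 2, 3, 4 or 5, naive LPS 2, and each PBS library), or in 10 alternative settings, 1 was called without AF9-experienced LPS 1, and 14 were called without naive LPS 1.

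Some weak recurrent regions hardly varied. The region at the end of Sfswap, a splicing regulator, had percentiles of 57.7, 60.02 and 64.1 (lowest, median, highest) in LPS lists and 61.1, 65.0 and 67.2 in PBS lists, with a mean of 62.4 ± 3.16 (SD, n = 13), and each of the 3 left-out lists held a peak there. A region inside Vti1a, a vesicle fusion gene, had 58.2, 59.4 and 66.3 in LPS lists and 56.7, 58.5 and 60.7 in PBS lists (mean 60.02 ± 2.57), and one inside the kinase gene Ptk2b had 58.5, 59.1 and 64.1 in LPS lists and 55.7, 61.1 and 64.2 in PBS lists (mean 60.4 ± 2.84). Values of LPS and PBS lists overlapped in all 3. Regions inside Clasp1, which encodes a microtubule-binding protein, and Nol4l had means of 61.8 ± 4.95 and 61.9 ± 4.02.

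The genes with the highest numbers of weak recurrent regions were long. In all, 20782 of them were linked to 9316 genes, 4427 genes had 1, and 94 genes had at least 10, with a median gene length of 283 kb against 17.5 kb over all protein-coding gene models. The chromatin remodeller gene Arid1b, the integrin gene Itga9 and the phosphodiesterase gene Pde4d each had 20, followed by Etv6 with 19, Nav2 and Pip4k2a with 18, and Asap1, Foxp1 and Gse1 with 17. In Atxn1, 6 of 15 were higher and 1 lower after LPS, in Aff3, which encodes a nuclear factor of the AF4 family, 5 of 14 and 2, and in Ablim1, an actin-binding protein gene, 0 of 13 and 5. These genes were chosen after their values were seen, and the background was 10.2% higher and 11.7% lower. Arid1b and Pde4d each had 2 of 20 higher and 1 lower, and Gse1 had 0 of 17 higher and 1 lower. Some of these genes held more of the other recurrent regions: Pde4d had 20 weak recurrent and 24 other recurrent regions, and Gse1 17 and 26. No number per gene length was computed. At 2067 genes a weak recurrent region was the only kind of recurrent region.

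The threshold itself falls within a continuum. The regions just inside it had a best rank of 19101 (Klra5, Baz2b and a region whose nearest gene is Maf, beyond 50 kb), 19102 (Gpn2) and 19103 (Wwox). Those just outside ranked 19099 (Nelfa), 19098 (Bace2 and Dapl1), 19097 (Mfap3) and 19096 (Tmem106a). The mean percentile was 29.0 to 50.6 for the 5 just inside and 27.1 to 56.8 for the 5 just outside. On the side of recurrence, the 3069 regions in exactly 8 lists had a median mean percentile of 14.5, and the 3321 weak regions in 7 lists, which were left out, 12.0.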

How the data were processed

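ATAC-seq peak lists of 16 biological replicates were used, 1 per replicate, from 32 labelled samples that are 2 technical libraries each. Per the submitters' processing notes, the tools were MACS3, BWA, Picard, Trim Galore and FastQC (versions not given), on build GRCm38. Filters and the handling of replicates are not given in the sources used here, and the labels name both Omni-ATAC and a Chromium library chemistry. For every peak the deposited lists hold a fold enrichment (a ratio of summit to local background), a −log10 p and a −log10 q, as the authors computed them. These are the peak's own values and were used only to rank and describe peaks within a list.

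Lists were shortened to 59609 autosomal peaks by −log10 p (ties by fold), merged where they overlapped by at least 1 base, and turned into percentiles, so a difference is one of rank and a region can move when others do. Depth cannot be read from the lists. Regions with a peak in at least 3 of 13 lists were fitted in limma 3.58.1 (R 4.3.3) with a mean per group and empirical Bayes with trend and robust options, with Benjamini-Hochberg adjustment over 70017 regions. The script was tested on simulated data. Numbers of regions and fold enrichment per library are given without a test, and sets of regions were compared by exact sign-flip over libraries. P-values measure the spread between samples labelled as biological replicates.

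Genes were protein-coding RefSeq models of GRCm38.p6 (20665 autosomal), linked by position within 50 kb. Such a link is no evidence of regulation. Planned measurements at summits needed a genome, which was not used here, so RefSeq promoter windows of 300 bases took their place. Named regions were, per contrast, the 8 called with the smallest p in each direction (3 where none was called), up to 3 called per gene list, the 8 highest and 5 steadiest regions in all 13 lists and the 5 on each side of the threshold; others named, among them promoters, miRNAs and long genes, were chosen after their values were seen. The regions, the gene lists and the tests were chosen with earlier results of these data known. Some results are not reported here. Alternatives are given at the end.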

Additional observations from a re-analysis of the deposited data

Results flagged for a closer look

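In the 5 AF9-experienced LPS lists, 13 of 109 values checked (11.9%) had 1 library whose gap to the nearest of the others, divided by the range, exceeded Dixon's limit of 0.71. Chance gives about 1 in 20, and a region listed at 0 in all libraries but 1 passes by construction. The ratio was 1 for regions at Avpr1b, Dio1, Grin2b, Sox5, Emsy, Itga9, Bcl11b and Spink13, where AF9-experienced LPS 1 (Avpr1b), 2 (Sox5, Spink13), 3 (Dio1, Itga9) or 5 (Grin2b, Emsy, Bcl11b) held the only peak, with a percentile of 0.898 (Bcl11b) to 21.6 (Grin2b). It was 0.948 at Tbx5 (AF9-experienced LPS 5), 0.907 at Pecam1 (4), 0.762 at Jun (5, with 26.3 against a group median of 5.2), 0.763 at Vti1a (1) and 0.730 at Klrb1c (1, with 41.4 against a median of 58.2).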

How the results depend on the processing

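Over both backgrounds, calls among the weak recurrent regions (4605) were 1566 with presence in place of percentile, 0 with presence in the 16 full lists, 0 with the median fold as a covariate, 2834 with at least 10 lists and 2403 with none among the 25000 strongest. In AF9-experienced mice (2034) they were 3202 ranked by fold, 875 by presence, 0 in full lists, 1304 with 40000 peaks per list, 4078 with library weights, 0 with the covariate, 3229 without lists with at least 2 Y peaks, 1117 at 10 lists and 993 at 25000. In naive mice (1047) they were 0 by presence, 0 in full lists, 2036 with weights, 99 with the covariate, 1817 without AF9-experienced LPS 3 and 4, 552 at 10 lists and 428 at 25000. AF9-experienced minus naive had 5 calls after PBS with weights. After LPS it had 0 by fold, presence, full lists, 40000 peaks, a minimum of 8 lists, weights, block, covariate, own groups and 25000, and 3 in windows around summits, where the interaction had 1. The cause was not tested. Leaving out the Y-peak lists, or AF9-experienced LPS 3 and 4, was chosen after seeing the data. Ranking by fold and windows around summits chose their regions anew by the same rule, so their counts are over other sets of regions.

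Deviations of same-numbered lists correlated at −0.168 to 0.152 (13 pairs), and those of different numbers at −0.176 to 0.235. Deviations within a group of few lists are tied to each other, so these values cannot show whether the replicate numbers pair the samples. The replicate block gave 3592 calls over both backgrounds (2826 of them among the 4605), 2062 in AF9-experienced and 269 in naive mice, and 0 after LPS between AF9-experienced and naive.

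With single libraries left out, calls were 2947 to 5034, 528 to 2409 in AF9-experienced, 61 to 1367 in naive mice and 0 to 14 between AF9-experienced and naive after LPS, and the differences were −3382 to −2487 in regions per list and −4.85 to −3.97 in fold. In full lists the difference in regions per list was −3388. Uncalled differences whose sign turned with single libraries left out were AF9-experienced minus naive in regions per list after PBS (−106 to 1044), in fold over both treatments (−0.880 to 0.406) and in fold after LPS (−0.754 to 0.378). By presence in full lists, called regions changed sign at Adgrl2 (0.05), Jun, Tacc2, Itga3, Rbfox3, Il6st and Ciita (0.0833 each), Pecam1 (0.25), Cdk6 (−0.0167) and Tnfaip2 (−0.0417), and with the covariate at Bcl11b (13.1) and Cd200r3 (7.41). Of the other values, 2055 kept direction and call, 311 kept direction only and 3 moved. Gene-end share, distance, GC and CpG kept sign and call under all alternatives run. Repeat share and motif windows at summits were not run.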
